A study of Mus musculus with 14 samples.

Results

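The 43 genes described here encode proteins of myelin and of the oligodendrocyte lineage. Members were picked by symbol from known lineage genes and not by a threshold on measured values, though with earlier results of these data known. All 43 were found among the 13866 genes of the deposited count table. All 43 also passed the filter on low counts that left 11852 genes for testing. By stage they comprised 2 genes of oligodendrocyte precursor cells, 4 genes of newly formed oligodendrocytes, 5 transcription factors of the lineage and 32 genes of myelinating oligodendrocytes. RNA was taken from brain homogenates of 14 mice aged 19 days, and each mouse gave 1 library. WT mice (C57BL/6JOlaHsd) received PBS (WT + PBS, n = 3) or 100 mg/kg CBE (WT + CBE, n = 3). MyTrMaSt null mice, which lack MyD88, TRIF, MAVS and STING, received PBS (MyTrMaSt + PBS, n = 3) or 100 mg/kg CBE (MyTrMaSt + CBE, n = 5). Injections were intraperitoneal and daily from day 8. CBE (conduritol B-epoxide) irreversibly inhibits acid beta-glucosidase, the lysosomal enzyme deficient in Gaucher disease, and its injection is used as a chemical model of the neuronal forms of that disease. The inhibitor was given to the whole animal, and the 4 proteins are absent from all cells of the null mice, so the design does not separate oligodendrocytes from other cells as the site of a change.

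Oligodendrocytes are the myelin-forming cells of the central nervous system. They arise from proliferating precursors marked by the PDGF receptor alpha and the NG2 proteoglycan, pass through a short newly formed stage marked by GPR17 and BCAS1, and then express large amounts of myelin proteins and lipids. OLIG1, OLIG2 and SOX10 act through the whole lineage, whereas MYRF switches on the myelin genes. In the mouse brain much of the myelin is laid down in the weeks after birth in which the mice were injected.

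Libraries were made by MARSseq, which counts the 3′ ends of transcripts, and held 1290616 to 3704691 counts. Levels are given below as CPM, counts scaled to a common library size with TMM factors. The counts were compared by the quasi-likelihood F test of edgeR, with the 4 group means fitted together, and a gene was called at a Benjamini-Hochberg adjusted p below 0.05 over all 11852 tested genes. The library of fewest counts, WT + PBS replicate 1, stood apart from the rest of its group. The deviation of its levels followed the GC content of the last 500 bases of the transcripts (Spearman rho 0.54 across all tested genes and 0.63 across the members). Over the other 13 libraries the rho across members ran from -0.54 to 0.03. MyTrMaSt + PBS replicate 3 deviated in the opposite direction, with a rho of -0.45 across all tested genes and -0.54 across the members, and is 1 of the 3 controls of the MyTrMaSt mice. Pdgfra, Enpp6 and Omg, whose transcript ends are poor in GC, had 1, 1 and 6 counts there. For the members called in WT mice the log2 fold change is therefore given with and without it. Xist gave 0 counts in the 3 WT + PBS libraries, 1 to 47 in WT + CBE, 32 to 46 in MyTrMaSt + PBS and 0 to 39 in MyTrMaSt + CBE. Sex is not given in the labels. Xist counts thus did not overlap between the genotypes after PBS, where its level cannot be told apart from the genotype from these groups alone. In WT mice CBE and PBS were separated by 1 count only, that of WT + CBE replicate 2, beside 47 and 30 in replicates 1 and 3. Apart from this 1 library, the Xist level cannot be told apart from the treatment in WT mice. WT + PBS enters the interaction as well. The Xist level was added as a covariate in an alternative fit of all 14 libraries. Of the genes deleted in MyTrMaSt null mice, Myd88 had 9 to 17 counts under PBS and 10 to 22 under CBE in these mice, against 19 to 36 and 45 to 71 in WT mice. Ticam1 and Mavs overlapped between the genotypes in both treatments, and Tmem173 had 18 to 20 counts under PBS in MyTrMaSt mice against 1 to 9 in WT mice. Whether the counted 3′ ends lie in the deleted parts is not known, so these genes do not check the labels.

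**Figure D1:**
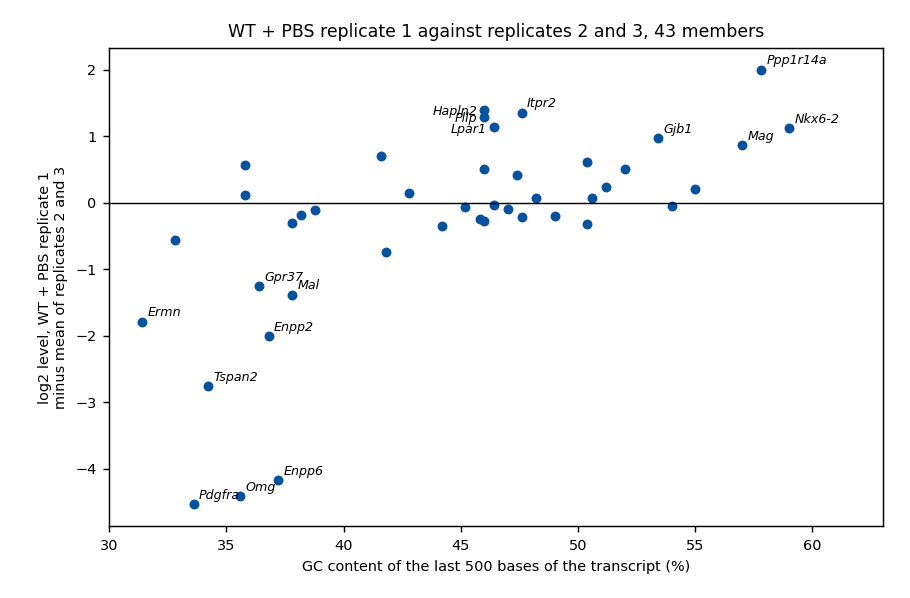
Each point is 1 of the 43 members, with the GC content of the last 500 bases of its transcript (percent) on the x axis and the log2 level in WT + PBS replicate 1 minus the mean of replicates 2 and 3 on the y axis. Pdgfra, Omg and Enpp6 at low GC content lie more than 4 log2 units below 0, whereas Ppp1r14a at 57.8% GC lies 2.0 above it.

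Promoter sequences are shown for Opalin, Cnp and Mag, because these 3 members were called in WT mice after CBE and carry a core motif of the myelin regulator MYRF near the annotated start. RefSeq windows on GRCm38.p6, from 250 bases before to 50 bases after a transcription start, were available for 30 of the 43 members. The letters CTGGCAC, on either strand, were found in 5 of these 30 members (Cnp, Hapln2, Lpar1, Mag and Opalin), or in 6 of their 42 windows, some of which overlap. They were found in 5.01% of all 32851 windows. Of the 12 members called in WT mice that have a window, 3 carried the motif. The motif was 1 of 11 short motifs looked at in these windows and was chosen for display after the matches were seen. The E-box motif CACGTG was found in none of the 42 windows and in 7.15% of all windows, the SOX-type motif ACAAAG in 11 of the 42 and in 18.7% of all windows, and CATCTG, another E-box, in 12 of the 42 and in 17.2% of all windows. In the following sequences the motif stands in capitals. It begins 36 bases after the start in Opalin (GTGCCAG, the reverse strand of the motif), at position -81 from it in Cnp and at position -68 from the start of the Mag window shown. A second annotated start of Mag has a window that overlaps this one, and the same copy of the motif lies at position -9 from that start.
Opalin, chr19:41077064-41077363, minus strand: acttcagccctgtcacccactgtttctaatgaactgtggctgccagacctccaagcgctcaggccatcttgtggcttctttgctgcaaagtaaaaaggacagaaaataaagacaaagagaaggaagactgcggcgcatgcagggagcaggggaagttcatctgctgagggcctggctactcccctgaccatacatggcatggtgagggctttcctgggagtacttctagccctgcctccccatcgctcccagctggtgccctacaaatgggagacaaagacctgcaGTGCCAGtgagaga
Cnp, chr11:100574689-100574988, plus strand: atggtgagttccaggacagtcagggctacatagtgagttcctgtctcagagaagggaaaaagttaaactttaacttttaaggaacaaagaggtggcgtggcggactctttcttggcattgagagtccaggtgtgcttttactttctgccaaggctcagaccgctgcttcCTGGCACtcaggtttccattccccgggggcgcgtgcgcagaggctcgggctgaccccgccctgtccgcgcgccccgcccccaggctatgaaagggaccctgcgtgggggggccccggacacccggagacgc
Mag, chr7:30914814-30915113, minus strand: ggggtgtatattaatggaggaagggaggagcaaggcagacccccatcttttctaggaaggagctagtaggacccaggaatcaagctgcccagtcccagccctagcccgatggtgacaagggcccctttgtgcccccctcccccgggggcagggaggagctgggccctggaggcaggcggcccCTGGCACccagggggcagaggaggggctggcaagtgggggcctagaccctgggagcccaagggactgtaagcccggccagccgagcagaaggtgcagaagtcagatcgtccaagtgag

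In WT mice, 14 of the 43 members were lower after CBE than after PBS and none was higher. The 14 were 9 of the 11 genes of myelin sheath proteins (Mbp, Mog, Mag, Mobp, Cnp, Cldn11, Pllp, Ermn and Opalin), the gap junction gene Gjb1, the transferrin gene Trf, and Gsn, Ppp1r14a and Tmem88b. All 14 belong to the myelinating stage, where the median over 32 genes was -0.58 on the log2 scale, and none of the 11 genes of the earlier stages and the transcription factors was called. Over all 11852 tested genes 3.89% were called lower, 6.7% higher and 10.6% in either direction, and the median log2 fold change was -0.02. At least 2-fold and an adjusted p below 0.05, the rule the study used, held for 8 of the 14 and for 6.4% of all tested genes, but without WT + PBS replicate 1 it held for 3 members (Ermn, Gsn and Tmem88b) and for 6.58% of all genes. In 18 of the 43 members all WT + CBE libraries lay below all WT + PBS libraries, which held for 12.8% of all tested genes, and in 1, Myrf, they all lay above, which held for 15.1%. In RNA from whole tissue, fewer oligodendrocytes and less RNA per oligodendrocyte cannot be told apart. Without WT + PBS replicate 1 all 14 were still called and Bcas1, Mal, Car2 and Gpr37 joined them, giving 18 called members, against 12.6% of all genes. The log2 fold changes were then -0.52 for Mbp, -0.63 for Mobp, -0.70 for Cnp, -0.65 for Trf, -1.02 for Gsn and -1.48 for Tmem88b, beside -0.68, -0.66, -0.90, -0.65, -1.26 and -1.33 with it, and those of the other 8 are given with each gene. Without WT + CBE replicate 2 there were 7 called members, against 6.24% of all genes. With the Xist level as a covariate 8 of the 14 were called (Mbp, Mog, Mobp, Cnp, Cldn11, Pllp, Opalin and Gsn), against 5.45% of all genes. The log2 fold changes of the other 6 were then -0.89 for Mag, -1.39 for Ermn, -1.06 for Gjb1, -0.72 for Trf, -2.16 for Ppp1r14a and -1.17 for Tmem88b, beside -1.0, -1.48, -1.19, -0.65, -1.70 and -1.33 without the covariate. An offset for GC content in each library gave 17 called members, the 14 among them, against 11.9% of all genes.

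The number of calls in WT mice also depended on which libraries gave the estimate of the spread. With the 6 WT libraries alone only Opalin and Gsn were called, and with these libraries less WT + PBS replicate 1 there were 24 called members, all lower, of 41 tested. The share of all genes called was 4.46% in the former fit and 17.8% in the latter. The 24 included Gpr17, Bcas1 and Enpp6 of the newly formed stage and Olig1, beside 20 members of the myelinating stage.

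**Figure D2:**
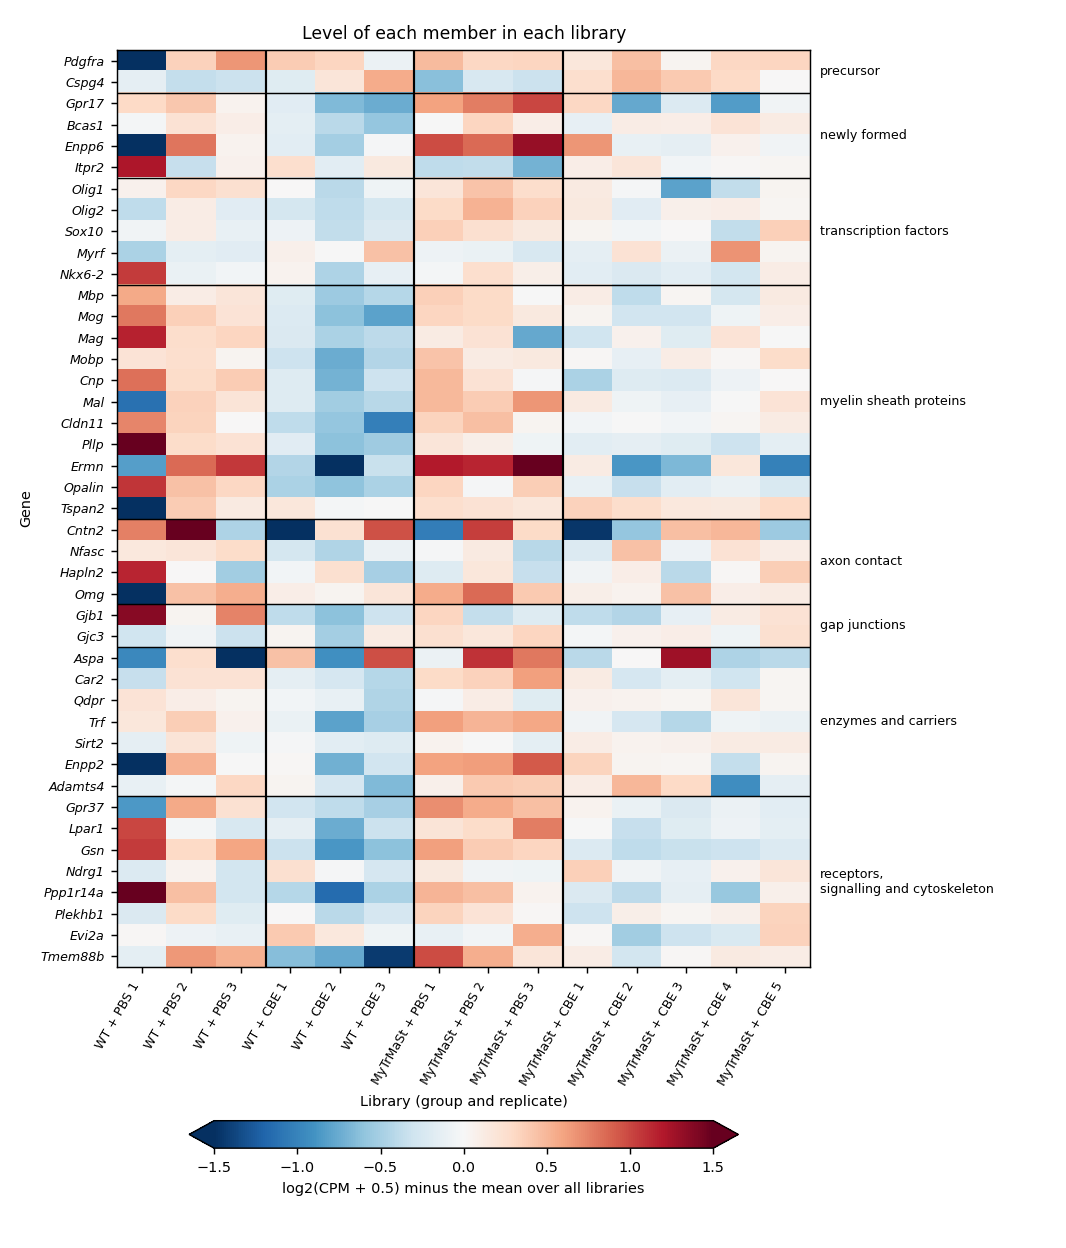
Heat map of the 43 members (rows, grouped by role) in the 14 libraries (columns, grouped by genotype and treatment), with colour for log2(CPM + 0.5) minus the mean of the gene over all libraries. The rows of the myelin sheath proteins are blue in the 3 WT + CBE libraries apart from Tspan2, and WT + PBS replicate 1 differs from replicates 2 and 3 in many rows in both directions.

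In WT mice the genes of the myelin sheath itself were the group with the most calls, 9 of 11. In MyTrMaSt mice Ermn was called with all libraries, and Cnp, Mal, Ermn and Opalin were called without WT + PBS replicate 1 and in the MyTrMaSt libraries alone. The interaction described further on was called for none of the 11. MOG (myelin oligodendrocyte glycoprotein, chr17:37010743-37023398) lies on the outermost layer of the sheath. Mog was at 557, 414 and 372 CPM under PBS and 278, 209 and 185 under CBE in WT mice, and at 402, 393 and 357 under PBS and 331, 264, 263, 308 and 344 under CBE in MyTrMaSt mice. Levels did not overlap between CBE and PBS in either genotype. Its log2 fold change was -0.99 ± 0.18 (SE) in WT mice with an adjusted p of 0.00118, or -0.79 (adjusted p 0.00114) without WT + PBS replicate 1, and -0.35 ± 0.16 with an adjusted p of 0.194 in MyTrMaSt mice. Opalin (chr19:41061710-41077113), a membrane protein of late oligodendrocytes, was at 179.6, 116 and 106 CPM under PBS and 61.4, 55.9 and 61.5 under CBE in WT mice. In MyTrMaSt mice it was at 107, 84.5 and 109.9 after PBS and 78.7, 66.8, 76.6, 79.3 and 72.8 after CBE. It was 2.21-fold lower with CBE in WT mice (log2 fold change -1.15 ± 0.19, adjusted p 0.00039) and had a log2 fold change of -0.42 ± 0.16 in MyTrMaSt mice (adjusted p 0.12). Without WT + PBS replicate 1, its highest library, the log2 fold change in WT mice was -0.89 with an adjusted p of 0.000148. That library lay above the others for several sheath genes, and the WT + CBE libraries lay below the other 2 as well.

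Cldn11 (chr3:31149920-31164324) encodes the tight junction protein between the wraps of myelin. It was at 716, 544 and 434 CPM under PBS and 332, 288 and 211 under CBE in WT mice, and at 542, 591 and 445 under PBS and 420.0, 430.0, 419.9, 441 and 469 under CBE in MyTrMaSt mice. The 3 WT + CBE libraries were the lowest of all 14. On the log2 scale the change was -1.02 ± 0.19 in WT mice (adjusted p 0.00122, and -0.81 without WT + PBS replicate 1) and -0.27 ± 0.16 in MyTrMaSt mice (adjusted p 0.335). Mobp (chr9:120149707-120181484), which encodes a protein of the compacted membrane layers, was ordered alike, at 508, 525 and 451 CPM under PBS and 354, 262 and 324 under CBE in WT mice, and at 593, 479.7 and 487 under PBS and 444, 404, 473, 445 and 530.0 under CBE in MyTrMaSt mice. Its WT + CBE libraries did not overlap with any other group. It fell 1.58-fold in WT mice (log2 fold change -0.66 ± 0.15, adjusted p 0.00781), compared with -0.18 ± 0.13 in MyTrMaSt mice (adjusted p 0.442).

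Mbp, the gene of myelin basic protein, which holds the cytoplasmic faces of the myelin layers together, had the highest level of all members in every library. It was at 12837, 9375 and 9802 CPM under PBS and 7632, 5947 and 6418 under CBE in WT mice, a 1.60-fold decrease (log2 fold change -0.68 ± 0.17, adjusted p 0.014). In MyTrMaSt mice it was at 11116, 10588 and 8580.2 CPM after PBS and 9331, 6629.5, 8844, 7219.6 and 9498 after CBE, and the groups overlapped (log2 fold change -0.28 ± 0.15, adjusted p 0.266). Cnp (chr11:100574904-100591729), whose product is an enzyme of non-compact myelin, was at 2245, 1532 and 1649 CPM under PBS and 1112, 776 and 1023 under CBE in WT mice, and at 1784, 1477 and 1257 under PBS and 911, 1112, 1102, 1209.7 and 1279 under CBE in MyTrMaSt mice. It fell 1.86-fold in WT mice (adjusted p 0.00325). For MyTrMaSt mice the log2 change was -0.42 ± 0.16 with an adjusted p of 0.118, or 0.0244 without WT + PBS replicate 1. Exons of Cnp share 154 bases with Dnajc7 on the opposite strand, and the sources used here do not say whether counting used the strand.

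Mag (chr7:30899176-30914873) and Pllp (chr8:94674894-94696278) rested more on WT + PBS replicate 1. Mag, which encodes an adhesion protein of the innermost layer facing the axon, was at 1175, 634 and 657 CPM under PBS and 453, 377 and 400.1 under CBE in WT mice. Its log2 fold change was -1.0 (adjusted p 0.014) with this library and -0.64 (adjusted p 0.0348) without it. In MyTrMaSt mice Mag was at 574, 610.0 and 309 CPM after PBS and 427, 549, 464, 608 and 525 after CBE, with a log2 change of 0.05 ± 0.22 (adjusted p 0.928). The 309 CPM are of MyTrMaSt + PBS replicate 3, and with the offset for GC content the log2 change was -0.098. Pllp, the gene of the proteolipid plasmolipin, was at 473, 198 and 189 CPM under PBS and 144, 107 and 113 under CBE in WT mice, and at 185, 174 and 156 under PBS and 146, 148, 144, 131 and 147 under CBE in MyTrMaSt mice. Its log2 fold change in WT mice was -1.22 (adjusted p 0.00457) with the library and -0.66 (adjusted p 0.00212) without it. The highest of the 3 WT + CBE values of either gene lay below the lowest WT + PBS value. WT + PBS replicate 1 was the highest of its group for both genes, so leaving it out cannot change this.

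Ermn (chr2:58045113-58052864), which encodes the cytoskeletal protein ermin of late oligodendrocytes, was called in both genotypes. It was at 5.41, 18.5 and 21.5 CPM under PBS and 7.27, 2.35 and 7.83 under CBE in WT mice, and at 23.5, 22.7 and 29.6 under PBS and 10.9, 5.26, 6.08, 11.3 and 4.70 under CBE in MyTrMaSt mice. The lowest WT + PBS value is that of replicate 1, in which the gene had 6 counts and which overlapped with WT + CBE. It was 2.78-fold lower with CBE in WT mice (log2 fold change -1.48 ± 0.44, adjusted p 0.0385), or -1.74 on the log2 scale without replicate 1. In MyTrMaSt mice it was 3.32-fold lower (log2 fold change -1.73 ± 0.34, adjusted p 0.00383). Mal and Tspan2, the remaining genes of sheath proteins, were not called in either genotype with all libraries. Mal, a proteolipid, was at 385, 1057 and 957 CPM under PBS and 728, 583 and 625.5 under CBE in WT mice, and the log2 fold change of -0.31 (adjusted p 0.48) became -0.63 (adjusted p 0.00152) without replicate 1. Tspan2, a tetraspanin, was at 52.3, 388 and 329 CPM under PBS and 335, 293 and 296 under CBE in WT mice, with an adjusted p of 0.757 with and 0.299 without that library.

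**Figure D3:**
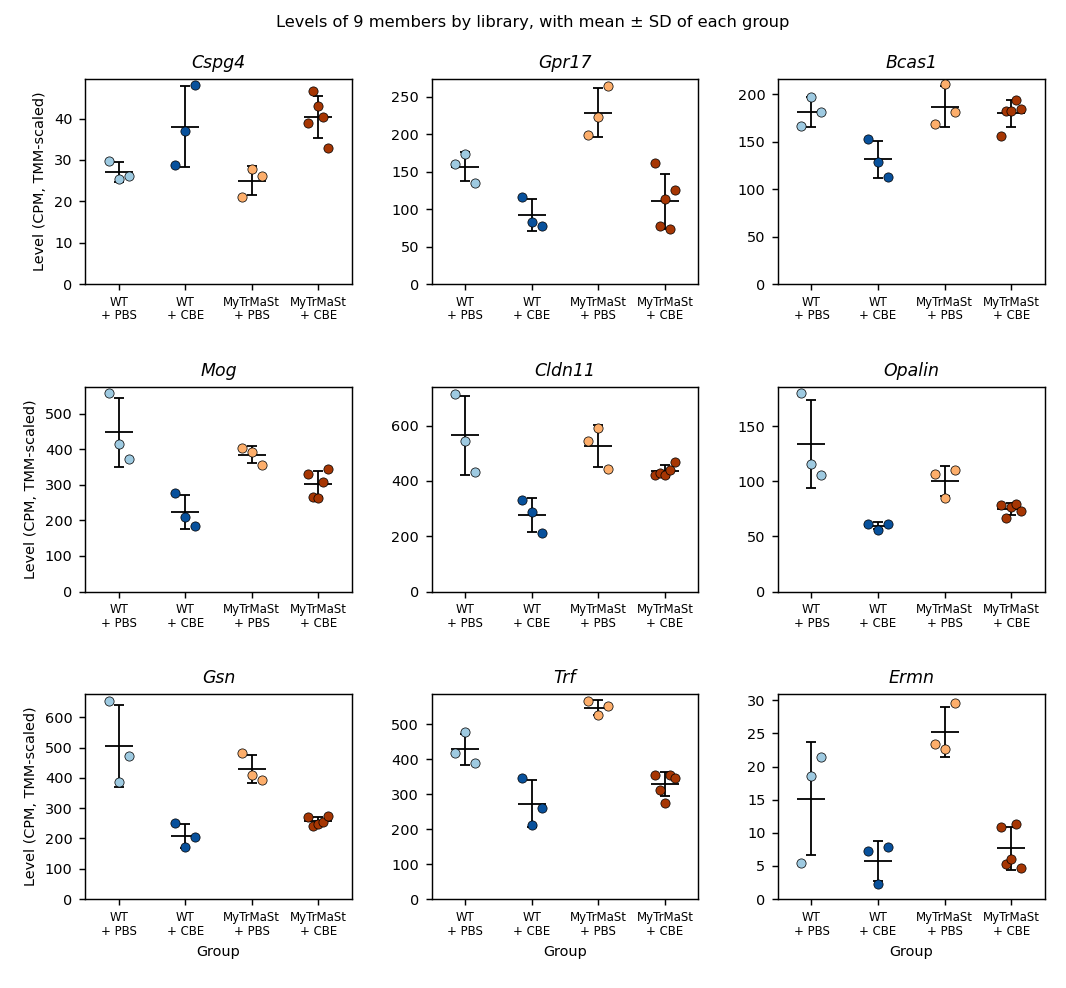
Levels (CPM on TMM-scaled library sizes, y axes from 0) of 9 members in the 4 groups, with 1 point per library and bars for the mean ± SD of a group. Mog, Cldn11, Opalin and Gsn are lower in WT + CBE than in any WT + PBS library, Gpr17 and Trf are lower after CBE in both genotypes, and Cspg4 is higher in all MyTrMaSt + CBE libraries than in any MyTrMaSt + PBS library.

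The precursor genes were not among those that fell. Pdgfra, the receptor for the growth factor that drives precursor division, was at 0.90, 28.7 and 35.9 CPM under PBS and 29.4, 28.2 and 21.1 under CBE in WT mice, and at 31.4, 28 and 28.2 under PBS and 25.3, 30.8, 23.1, 28.1 and 28.2 under CBE in MyTrMaSt mice. Apart from WT + PBS replicate 1 with its single count, all libraries lay between 21.1 and 35.9 CPM. On the log2 scale the change was 0.13 ± 0.41 in WT mice (adjusted p 0.895) and -0.11 ± 0.35 in MyTrMaSt mice (adjusted p 0.892), and in WT mice it turned to -0.26 (adjusted p 0.447) without that library. Cspg4 (chr9:56865033-56899870), the gene of the NG2 proteoglycan, was at 29.8, 25.4 and 26.2 CPM under PBS and 28.8, 37.1 and 48.2 under CBE in WT mice, and at 21.1, 27.7 and 26.1 under PBS and 39, 46.6, 43, 40.4 and 32.9 under CBE in MyTrMaSt mice. It rose 1.61-fold in MyTrMaSt mice (log2 fold change 0.69 ± 0.18, adjusted p 0.0274), where the groups did not overlap, and had a log2 fold change of 0.48 ± 0.21 in WT mice (adjusted p 0.169), where they did. The call in MyTrMaSt mice was lost on leaving out any MyTrMaSt + PBS library or MyTrMaSt + CBE replicate 2 or 3 (adjusted p 0.0554 to 0.125) and with the offset for GC content (adjusted p 0.0775). It was also lost with a block for the replicate number. Pericytes also carry NG2. The summed level of 4 pericyte markers fell with CBE, with a ratio of 0.698 in WT and 0.616 in MyTrMaSt mice. The part of these cells in the level of Cspg4 was not tested.

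Of the 4 genes of newly formed oligodendrocytes, Gpr17 fell in MyTrMaSt mice and none was called in WT mice. Gpr17 encodes a receptor expressed for a short time between the precursor and the myelinating cell. It was at 161, 174 and 135 CPM under PBS and 117, 82.6 and 77.7 under CBE in WT mice, and at 199, 223 and 264 under PBS and 162, 77, 114, 72.9 and 126 under CBE in MyTrMaSt mice. CBE and PBS libraries did not overlap in either genotype. Its log2 fold change was -1.05 ± 0.22 (adjusted p 0.00543) in MyTrMaSt mice and -0.75 ± 0.25 (adjusted p 0.0673) in WT mice. Exons of Gpr17 share 188 bases with those of Lims2 on the opposite strand, and Lims2 fell with it in MyTrMaSt mice (log2 fold change -0.56 ± 0.14, adjusted p 0.0208). Bcas1 (chr2:170346991-170427845), a marker of cells that start to wrap axons, was at 166, 197 and 181 CPM under PBS and 152, 128 and 113 under CBE in WT mice, and at 169, 211 and 181 under PBS and 156, 182, 182, 194 and 185 under CBE in MyTrMaSt mice. The WT + CBE libraries were the lowest 3 of the 14. Its log2 fold change in WT mice was -0.47 ± 0.15 (adjusted p 0.0561), or -0.51 (adjusted p 0.0198) without WT + PBS replicate 1, and in MyTrMaSt mice it was -0.06 ± 0.13 (adjusted p 0.835). Enpp6, a choline phosphodiesterase of the newly formed cell, was at 36.6, 33.3 and 46.1 CPM in MyTrMaSt + PBS and 29.2, 16.9, 16.6, 19.2 and 17.6 in MyTrMaSt + CBE (a log2 change of -0.95 ± 0.36, adjusted p 0.115, or 0.00238 without WT + PBS replicate 1). In WT mice it was at 0.90, 32.3 and 19 CPM after PBS and 16.3, 12.7 and 18.1 after CBE (log2 change -0.36, adjusted p 0.69, and -0.74, adjusted p 0.0814, without that library). Itpr2, a calcium channel of the endoplasmic reticulum, was at 33.4, 11.1 and 14.8 CPM under PBS and 16.9, 12.7 and 15.7 under CBE in WT mice, and at 10.7, 10.8 and 8.45 under PBS and 15.2, 16.1, 13.8, 14.3 and 14.5 under CBE in MyTrMaSt mice, and its adjusted p was 0.718 in WT and 0.234 in MyTrMaSt mice. Without WT + PBS replicate 1 it was called higher in MyTrMaSt mice (log2 change 0.56, adjusted p 0.0426), and in WT mice its log2 change turned from -0.22 to 0.27 (adjusted p 0.521).

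None of the 5 transcription factors was called in either genotype with all libraries, and without WT + PBS replicate 1 Olig1 and Olig2 were called lower in MyTrMaSt mice (adjusted p 0.0441 and 0.0345). Olig1 was at 441, 523 and 499.9 CPM under PBS and 426, 319.6 and 406 under CBE in WT mice, and at 479, 569.8 and 509 under PBS and 464, 417, 243, 327 and 437 under CBE in MyTrMaSt mice. CBE libraries lay below PBS libraries in both genotypes, with log2 fold changes of -0.35 ± 0.20 (adjusted p 0.303) and -0.46 ± 0.17 (adjusted p 0.119). Olig2 was at 67.7, 95.6 and 78 CPM under PBS and 73.6, 67.6 and 73.5 under CBE in WT mice, and at 108, 127 and 112 under PBS and 97.8, 78.5, 93.2, 94.5 and 89.6 under CBE in MyTrMaSt mice, with log2 fold changes of -0.18 ± 0.16 (adjusted p 0.521) and -0.35 ± 0.13 (adjusted p 0.121). Sox10 was at 144, 162 and 138 CPM under PBS and 142, 116 and 129 under CBE in WT mice, and at 192, 177 and 166 under PBS and 154, 146, 151, 116 and 193 under CBE in MyTrMaSt mice, and its groups overlapped in both genotypes. Its adjusted p was 0.509 in WT mice and 0.364 in MyTrMaSt mice. Myrf, the activator of the myelin genes, was at 60.5, 76 and 75.1 CPM under PBS and 88.7, 84 and 114 under CBE in WT mice, and at 80.1, 78.7 and 71.5 under PBS and 76.8, 98.4, 79, 134 and 86.5 under CBE in MyTrMaSt mice. It was the single member whose WT + CBE libraries all lay above the WT + PBS libraries, with a log2 fold change of 0.42 ± 0.20 and an adjusted p of 0.209. Nkx6-2, a late homeobox factor, had a log2 fold change of -0.53 ± 0.25 in WT mice (adjusted p 0.202), which was -0.08 without WT + PBS replicate 1.

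Genes of contact with the axon and of cell coupling held a single call. Gjb1 (chrX:101376378-101385629) encodes connexin 32, which joins the layers of myelin. It was at 58.7, 23.2 and 38 CPM under PBS and 17.2, 14.6 and 18.1 under CBE in WT mice, and at 28.3, 17.4 and 19.7 under PBS and 17.1, 16.5, 20.7, 24.6 and 26.2 under CBE in MyTrMaSt mice, and fell 2.28-fold in WT mice (log2 fold change -1.19 ± 0.30, adjusted p 0.0164). With WT + PBS replicate 1, its highest library in that group, left out, the log2 fold change was -0.84 (adjusted p 0.0358). Gjc3, the gene of connexin 29, had log2 fold changes of 0.12 in WT and -0.18 in MyTrMaSt mice and was not called. Nfasc, which encodes the neurofascin isoforms of glia and of axons alike, was at 177, 179 and 192 CPM under PBS and 132, 115 and 149 under CBE in WT mice, without overlap, and had an adjusted p of 0.111. Omg, a glycoprotein of the myelin and axon surface, was at 5.41, 121 and 130.4 CPM under PBS and 95.1, 91.5 and 101 under CBE in WT mice (adjusted p 0.938, or 0.108 without WT + PBS replicate 1). Cntn2, the contactin of the juxtaparanode, had 1 to 23 counts per library and Hapln2, a link protein of the node, lay between 13.1 and 42.4 CPM over all libraries, and neither was called.

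Among enzymes and carriers, Trf fell in both genotypes and Car2 in MyTrMaSt mice. Trf (chr9:103204001-103230444) encodes transferrin, the iron carrier that oligodendrocytes make in large amounts. It was at 418, 477 and 389 CPM under PBS and 345, 213 and 262 under CBE in WT mice, and at 565, 525 and 552 under PBS and 356, 311, 275, 354 and 346 under CBE in MyTrMaSt mice, without overlap between CBE and PBS in either genotype. On the log2 scale the change was -0.65 ± 0.17 (adjusted p 0.0182) in WT mice and -0.74 ± 0.14 (adjusted p 0.00387) in MyTrMaSt mice. The annotation has a gene model, Gm20425, that shares 2108 exon bases with Trf on the same strand and is not among the listed genes, and cells of the choroid plexus also express Trf. The summed level of 8 choroid plexus markers was 1276 to 3410.4 CPM under PBS and 1525 to 2488 under CBE in WT mice, and 2579 to 4278 under PBS and 1869 to 2954 under CBE in MyTrMaSt mice, none of the 8 was called in WT mice, and Sostdc1 alone was called lower in MyTrMaSt mice. The part of this tissue in the fall of Trf was not tested. Car2 (chr3:14886273-14900770), a cytosolic carbonic anhydrase, was at 241, 357 and 358 CPM under PBS and 279, 258 and 228 under CBE in WT mice, and at 373, 391 and 469.9 under PBS and 335, 256, 277, 249.6 and 313 under CBE in MyTrMaSt mice. It fell 1.44-fold in MyTrMaSt mice (adjusted p 0.0408), a call lost with the offset for GC content (adjusted p 0.0647) and with the Xist covariate (adjusted p 0.0793). In WT mice the adjusted p was 0.26, or 0.0298 without WT + PBS replicate 1. Sirt2, Qdpr, Enpp2, Adamts4 and Aspa were not called in either genotype with all libraries. Enpp2, the enzyme autotaxin, was called lower in MyTrMaSt mice without WT + PBS replicate 1 (log2 change -0.68, adjusted p 0.00415), and in WT mice it went from -0.19 to -0.57 (adjusted p 0.0617). Sirt2, a deacetylase that is abundant in myelin, kept between 949 and 1239 CPM in all 14 libraries, with log2 fold changes of -0.12 ± 0.12 in WT and 0.13 ± 0.11 in MyTrMaSt mice. Aspa, the enzyme that splits N-acetylaspartate, had at most 20 counts in a library.

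Gsn was the member with the smallest adjusted p in WT mice. Gsn (chr2:35256380-35307892) encodes gelsolin, which severs actin filaments. It was at 652, 388 and 473 CPM under PBS and 251, 172 and 205 under CBE in WT mice, and at 481, 411 and 394 under PBS and 272, 242, 249, 254 and 273 under CBE in MyTrMaSt mice, without overlap between CBE and PBS. Its log2 fold change was -1.26 ± 0.18 in WT mice (adjusted p 9.88e-05) and -0.73 ± 0.16 in MyTrMaSt mice (adjusted p 0.00679). Tmem88b (chr4:155781591-155785874), a membrane protein, was at 19.9, 34.8 and 32.1 CPM under PBS and 14, 12.7 and 7.83 under CBE in WT mice, and at 43.9, 32.2 and 25 under PBS and 23.8, 18, 22.3, 24.1 and 23.9 under CBE in MyTrMaSt mice. It fell 2.52-fold in WT mice (adjusted p 0.003) and had a log2 fold change of -0.59 ± 0.21 in MyTrMaSt mice (adjusted p 0.101). Ppp1r14a (chr7:29289308-29293801), an inhibitor of myosin phosphatase, was at 213, 68.2 and 40.9 CPM under PBS and 37, 22.1 and 35.5 under CBE in WT mice. WT + PBS replicate 1 alone held a value above 100 CPM, and the log2 fold change was -1.70 (adjusted p 0.0138) with it and -0.79 (adjusted p 0.0331) without it. In MyTrMaSt mice Ppp1r14a was at 71.1, 68.4 and 51.8 CPM after PBS and 42.9, 37.9, 45.4, 33.5 and 52.5 after CBE (adjusted p 0.335). Gpr37 (chr6:25665878-25690729), an orphan receptor of maturing oligodendrocytes, was at 41.5, 112 and 89 CPM under PBS and 62, 58.2 and 53.6 under CBE in WT mice, and at 123, 112 and 104 under PBS and 78.7, 70.6, 65.2, 70.9 and 67.7 under CBE in MyTrMaSt mice. It fell 1.60-fold in MyTrMaSt mice (adjusted p 0.0455), a call lost with the Xist covariate (adjusted p 0.0749). In WT mice the adjusted p was 0.179 with and 0.000698 without WT + PBS replicate 1. Lpar1, Ndrg1, Plekhb1 and Evi2a were not called with all libraries, and their log2 fold changes lay between -0.69 and 0.25 in WT mice and between -0.58 and 0.09 in MyTrMaSt mice. Lpar1, a lysophosphatidic acid receptor, gave the low end in both, and without WT + PBS replicate 1 it was -0.24 in WT mice (adjusted p 0.479) and -0.57 in MyTrMaSt mice (adjusted p 0.00898).

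In MyTrMaSt mice, 6 of the 43 members were lower after CBE (Gpr17, Ermn, Trf, Car2, Gpr37 and Gsn) and 1 was higher (Cspg4). Of all tested genes 2.44% were called lower and 5.32% higher, 7.75% in all. With at least 2-fold as well, Gpr17 and Ermn remained, against 3.89% of all genes, and the same pair did so without WT + PBS replicate 1, against 4.82%. Ermn, Trf and Gsn were called in both genotypes. The median log2 fold change of the 43 members was -0.27, and that of all tested genes 0.01. CBE libraries lay below all PBS libraries in 16 members (10.7% of all genes) and above them in 3 (11.8% of all genes), namely Cspg4, Itpr2 and Sirt2. This count of 7 called members also depended on WT + PBS replicate 1, which is in neither group of the comparison but adds to the common estimate of the spread. Without that library 19 members were called, 17 lower and 2 higher, against 18.6% of all genes, and in the MyTrMaSt libraries alone 16 of 42 were called, 15 lower, against 15.1%. Both sets held all 7. Of the libraries compared, leaving out MyTrMaSt + PBS replicate 1 left 3 called members, against 4.95% of all genes, and leaving out MyTrMaSt + PBS replicate 2 or 3 or MyTrMaSt + CBE replicate 2 or 3 left 4, against 3.61% to 6.16%. With the Xist covariate 5 members were called (Cspg4, Gpr17, Ermn, Trf and Gsn), against 6.1% of all genes, and with the offset for GC content 6 (Gpr17, Cnp, Ermn, Trf, Gpr37 and Gsn), against 9.52%. A block for the replicate number left 1 called member, Gsn, and the share of all genes in that fit is not given here. Among those added both without WT + PBS replicate 1 and in the MyTrMaSt libraries alone were Cnp, Mal, Opalin, Enpp6, Enpp2, Omg, Lpar1, Ppp1r14a and Tmem88b. Mbp, Mog, Mag, Mobp, Cldn11, Pllp and Gjb1, called in WT mice, were called in MyTrMaSt mice neither with all libraries nor in these 2 fits.

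**Figure D4:**
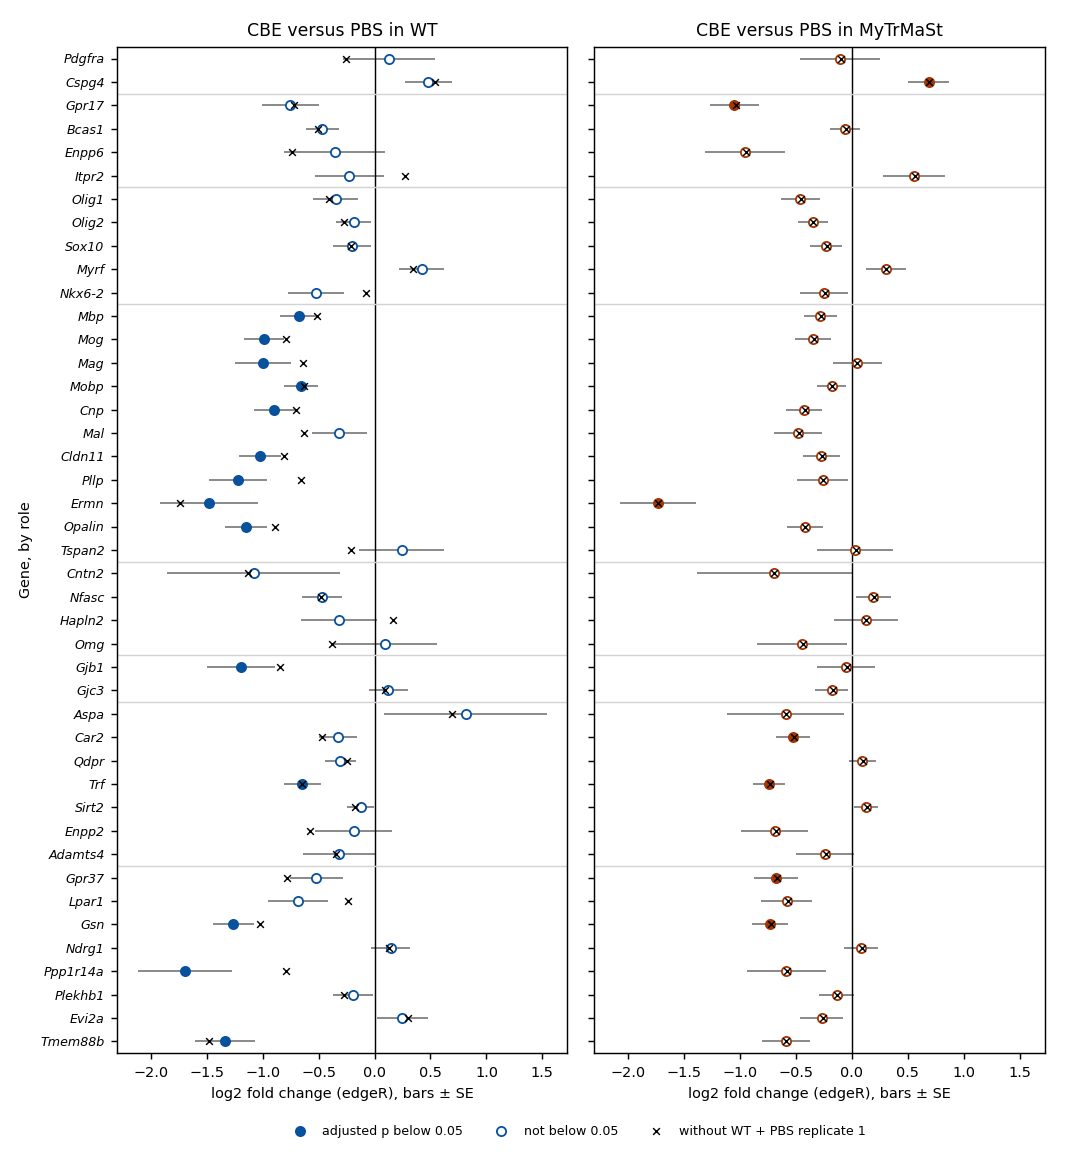
Log2 fold change of CBE versus PBS (x axes, bars ± SE) for the 43 members (y axis, in the order of the heat map) in WT mice on the left and MyTrMaSt mice on the right, with filled points for an adjusted p below 0.05 and crosses for the estimate without WT + PBS replicate 1. In WT mice 14 filled points lie below 0, and in MyTrMaSt mice 6 lie below and Cspg4 above.

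Whether the response to CBE differed between the genotypes was asked by the interaction, the log2 fold change in MyTrMaSt minus that in WT mice. No member was called, against 0.489% of all tested genes. At an unadjusted p below 0.05 there were 11 members (12.5% of all genes), all of the myelinating stage and all with a higher log2 fold change in MyTrMaSt than in WT mice. Among them were Mag (1.04 ± 0.33, p 0.00566, adjusted p 0.225), Cldn11 (0.75 ± 0.25, p 0.00784, adjusted p 0.256), Opalin (0.72 ± 0.25, p 0.00944, adjusted p 0.268) and Mog (0.64 ± 0.24, p 0.0159, adjusted p 0.308) in the same edgeR model. Without WT + PBS replicate 1 no member was called either, against 0.868% of all genes, and the interaction was 0.69 for Mag, 0.54 for Cldn11, 0.47 for Opalin and 0.45 for Mog. With the offset for GC content it was 0.61 for Mag, 1.10 for Cldn11, 0.86 for Opalin and 0.62 for Mog (adjusted p 0.182 to 0.316). The order of the numbers of called members depended on the libraries fitted, with 14 in WT and 7 in MyTrMaSt mice with all libraries, 18 and 19 without WT + PBS replicate 1, and 2 and 16 with each genotype fitted alone. A difference between the genotypes in the response of the members is thus not shown.

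After CBE, Mobp and Cldn11 were higher in MyTrMaSt than in WT mice. The log2 difference was 0.55 ± 0.14 for Mobp (adjusted p 0.0345) and 0.65 ± 0.17 for Cldn11 (adjusted p 0.0494), and over all genes 0.194% were called higher and 2.54% in either direction. These 2 calls use the same WT + CBE libraries as the comparison with WT + PBS above. In 10 of the 43 members all 5 MyTrMaSt + CBE libraries lay above all WT + CBE libraries (Bcas1, Olig2, Mobp, Mal, Cldn11, Opalin, Qdpr, Sirt2, Gpr37 and Tmem88b), which held for 3.94% of all genes, and in none did they all lie below, which held for 6.02%. Without WT + PBS replicate 1 there were 5 called members (Bcas1, Mobp, Mal, Cldn11 and Tmem88b), and the same 5 were called in the CBE libraries alone, against 3.52% and 3.42% of all genes. At an unadjusted p below 0.05 there were 7 members (8.06% of all genes). The adjusted p of Mobp and of Cldn11 was close to the threshold. With the Xist covariate Mobp alone was called, against 2.53% of all genes, and the adjusted p of Cldn11 was 0.0668. With the offset for GC content Mobp and Tmem88b were called (adjusted p 0.0305 and 0.0411) and Cldn11 was not (adjusted p 0.207), against 2.98% of all genes. No member was called without WT + CBE replicate 2 or 3, MyTrMaSt + PBS replicate 2 or MyTrMaSt + CBE replicate 1, 3 or 5, and 1 was called without WT + PBS replicate 2, WT + CBE replicate 1, MyTrMaSt + PBS replicate 1 or 3, or MyTrMaSt + CBE replicate 2 or 4. Over these fits 1.78% to 2.56% of all genes were called. After PBS no member was called between the genotypes in the edgeR model, against 0.186% of all genes, with 13 members at an unadjusted p below 0.05 (16.8% of all genes). On leaving out WT + PBS replicate 2 there were 6 called members, 3 higher and 3 lower in MyTrMaSt mice, against 3.86% of all genes. MyTrMaSt + PBS libraries lay above WT + PBS libraries in 10 members and below in 4, each against 10.1% of all genes.

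Levels were also summed by stage. The 32 genes of the myelinating stage summed to 18769 to 22939 CPM under PBS and 11702 to 14879 under CBE in WT mice, a ratio of means of 0.644, or 0.69 without WT + PBS replicate 1. In MyTrMaSt mice they summed to 17631 to 21297 CPM after PBS and 14270.0 to 18003 after CBE, a ratio of 0.821, and the highest CBE library lay above the lowest PBS library. Mbp made up a large part of these sums, and without it the ratios were 0.667 and 0.82. The 4 genes of newly formed cells gave 350.1 to 415 CPM under PBS and 225 to 302 under CBE in WT mice (ratio 0.678), and 415 to 499.5 under PBS and 292 to 362 under CBE in MyTrMaSt mice (ratio 0.7). The 5 transcription factors had ratios of 0.845 in WT and 0.807 in MyTrMaSt mice. Both precursor genes together had ratios of 1.31 and 1.25, and 1.11 in WT mice without WT + PBS replicate 1. In MyTrMaSt mice the mean of Cspg4 was 24.96 CPM after PBS and 40.35 after CBE, whereas that of Pdgfra was 29.2 and 27.09. The 14 further precursor genes described below had ratios under 1, at 0.891 in WT mice, 0.857 there without WT + PBS replicate 1, and 0.853 in MyTrMaSt mice. The sums are descriptions, since CPM of different genes share the same libraries.

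Other genes of the lineage were listed by stage. Over all tested genes 10.6% were called in WT and 7.75% in MyTrMaSt mice, or 12.6% and 18.6% without WT + PBS replicate 1. These shares stand beside the counts here and those of the galactolipid, node and cell type lists below. Of 14 tested further genes of precursors, C1ql1 was called lower in WT mice (log2 fold change -1.22 ± 0.35, adjusted p 0.0307), which was -0.88 (adjusted p 0.0703) without WT + PBS replicate 1, and none in MyTrMaSt mice, where Lhfpl3 was called lower without that library (adjusted p 0.0392). The list had a median of -0.11 in WT and -0.15 in MyTrMaSt mice. Of 8 tested further genes of newly formed cells, Rras2, a small GTPase, fell in both genotypes (log2 fold change -0.73 ± 0.21, adjusted p 0.0287, and -0.80 ± 0.17, adjusted p 0.00625). Cnksr3 was called lower in WT mice (-0.87 ± 0.25, adjusted p 0.0316) and Lims2 in MyTrMaSt mice, and the interaction of neither was called (adjusted p 0.712 and 0.705). Of 23 tested further genes of mature oligodendrocytes, 4 fell (Tppp, Gamt, Aatk and Ninj2) and 1 rose (Pmp22) in WT mice, and 2 fell (Tppp and Gltp) and 1 rose (Pmp22) in MyTrMaSt mice, with medians of -0.27 and -0.09. Without WT + PBS replicate 1, 5 were called lower and 2 higher in WT mice and 3 lower and 2 higher in MyTrMaSt mice. Ptgds, the prostaglandin D synthase that meninges and choroid plexus also express, was then called higher in both genotypes (log2 change 0.68, adjusted p 0.00302, and 0.69, adjusted p 0.000375), beside 0.871 and 0.0914 with all libraries. Summed over the 23 genes, the level was 3439 to 6263 CPM under PBS and 3642.5 to 4687 under CBE in WT mice, and 3386 to 4162 under PBS and 4252 to 5274 under CBE in MyTrMaSt mice. Its ratio of CBE to PBS was 0.948 in WT mice, or 1.195 without WT + PBS replicate 1, and 1.26 in MyTrMaSt mice, where the groups did not overlap. Ptgds made up a large part of this sum, and without it the ratios were 0.809, 0.866 and 0.908. Tppp, which promotes the growth of microtubules in myelin sheaths, fell in both and was at 226 to 288 CPM under PBS and 118 to 156 under CBE in WT mice, and at 266 to 294 under PBS and 137 to 202 under CBE in MyTrMaSt mice (adjusted p 0.000991 and 0.00537). Gamt, an enzyme of creatine synthesis, was at 127 to 189 CPM under PBS and 39 to 80.7 under CBE in WT mice (adjusted p 0.00522). Pmp22, a myelin protein of peripheral nerve that many other cells express as well, rose in both and was at 26.6 to 30.4 CPM under PBS and 48.6 to 58.7 under CBE in WT mice, and at 17.3 to 26.2 under PBS and 45.4 to 58.1 under CBE in MyTrMaSt mice (adjusted p 0.00454 and 0.000279). In the list of 4 Schwann cell markers 1 gene was tested, Ncmap, with 0.90 to 7.80 CPM in any library and no call.

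Genes that make the galactolipids of myelin were tested as a further list, of which Ugt8a, Fa2h and Gal3st1 are genes that the study itself names from these libraries, so that they are no independent evidence. In WT mice 3 of 5 fell and in MyTrMaSt mice 2 of 5. Ugt8a, which joins galactose to ceramide to give galactosylceramide, was at 25.3 to 140.5 CPM under PBS and 21.7 to 35.8 under CBE in WT mice, and at 171 to 202 under PBS and 32.8 to 67.8 under CBE in MyTrMaSt mice. On the log2 scale the change was -1.81 ± 0.40 in WT mice (adjusted p 0.00579), or -2.19 without WT + PBS replicate 1, and -1.98 ± 0.32 in MyTrMaSt mice (adjusted p 0.000768). Fa2h, which hydroxylates the fatty acid of these lipids, was at 209 to 274 CPM under PBS and 101 to 138 under CBE in WT mice, and at 324 to 403 under PBS and 164 to 188 under CBE in MyTrMaSt mice (log2 fold change -1.05 ± 0.16, adjusted p 0.000133, and -1.0 ± 0.13, adjusted p 9.12e-05). Gal3st1, the sulfotransferase that makes sulfatide, was called in WT mice (-1.24 ± 0.30, adjusted p 0.0132) and had a log2 fold change of -0.40 ± 0.25 in MyTrMaSt mice (adjusted p 0.358). Cers2 and Elovl1, which make very long chain lipids in many cell types, were not called in either genotype. Of 6 tested partners at the node and paranode, the axonal gene Cntnap1 was called in WT mice (-1.0 ± 0.24, adjusted p 0.0112, or -0.67 without WT + PBS replicate 1) and none in MyTrMaSt mice, where Ank3 and Kcna1 were called lower without that library (adjusted p 0.0281 and 0.00334).

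Markers of other cell types moved with CBE in the same libraries. Of 10 microglial markers 8 rose in each genotype, and their summed level was 621 to 919 CPM under PBS and 3431 to 3919 under CBE in WT mice, and 493.5 to 540.0 under PBS and 1833 to 2095 under CBE in MyTrMaSt mice. C1qc, a complement gene, had log2 fold changes of 2.90 and 2.38 (adjusted p 4.05e-09 and 4.71e-08). Of 8 astrocyte markers 3 rose in WT mice (Gfap, Aqp4 and Slc1a3) and 3 in MyTrMaSt mice (Gfap, Aldh1l1 and Aldoc), and S100b, which oligodendrocytes also express, was called lower in WT mice (adjusted p 0.0301, or 0.0506 without WT + PBS replicate 1). Without that library 4 rose in WT and 5 in MyTrMaSt mice. Gfap, the filament protein of astrocytes, rose in both and was at 27.4 to 98.4 CPM under PBS and 480.1 to 579.6 under CBE in WT mice, and at 46.1 to 55 under PBS and 452 to 614 under CBE in MyTrMaSt mice. The 8 astrocyte markers summed to 2945 to 3517 CPM under PBS and 4049 to 4443 under CBE in WT mice, and 3437 to 3859 under PBS and 4480.2 to 4853 under CBE in MyTrMaSt mice. Of 10 neuronal markers 4 were called lower in WT mice (Tubb3, Thy1, Nefl and Slc17a7) and 1 in MyTrMaSt mice (Snap25). With WT + PBS replicate 1 left out it was 5 in WT mice (Syt1, Tubb3, Stmn2, Thy1 and Nefl), and in MyTrMaSt mice 3 were lower (Snap25, Syt1 and Nefl) and Slc17a7 was higher. The neuronal markers summed to 6362 to 7600.5 CPM under PBS and 4606 to 5019.5 under CBE in WT mice, and 6210.5 to 7042 under PBS and 5211 to 6068.5 under CBE in MyTrMaSt mice. The ratio of neuronal sums was 0.703 in WT and 0.835 in MyTrMaSt mice, beside 0.644 and 0.821 for the 32 myelinating genes. CPM are shares of a library. The part of these cell types in the members' fall was not tested. Of 4 endothelial markers Ly6c1 rose in MyTrMaSt mice and none was called in WT mice, Rgs5 was called lower among 4 pericyte markers in each genotype, and of 5 genes of meninges and fibroblasts none was called. With WT + PBS replicate 1 left out the markers Flt1 of endothelium and Higd1b of pericytes were also called lower and Igf2 of the meninges list higher in MyTrMaSt mice (adjusted p 0.0103, 0.0254 and 0.0259).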

How the data were processed

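RNA of 14 mouse brains was sequenced as 3′-end MARSseq libraries. The authors mapped reads to mm10 with hisat, kept uniquely mapped reads and deposited raw counts per gene, and the submitters' processing notes list cutadapt and HTSeq. Use of strand and of molecular identifiers is not given in the sources used here. The authors' normalized values and their table of comparisons, which holds fold changes and p-values, were not used.

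The table lists 13866 genes, the least abundant of which reaches 6 counts in a library. The 11852 genes kept by filterByExpr (minimum count 10) were tested with the quasi-likelihood F test of edgeR 4.0.16 in R 4.3.3, with TMM factors, a mean for each of 4 groups, all 14 libraries and Benjamini-Hochberg adjustment. CPM use the TMM-scaled library sizes, and 0.5 was added for plotted log2 values. The fit was first checked on simulated counts in which the changed genes were known. Alternatives used other scaling factors and filters, DESeq2 1.42.0, voom of limma 3.58.1, a replicate block, an Xist covariate, other sets of libraries, and, chosen after seeing the data, an offset for GC content, the WT libraries without WT + PBS replicate 1, and the 2-fold limit without that library.

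The 43 members and the other lists were chosen with earlier results of these data known. Values of every library are given for the stage markers and for members called in any comparison, up to 25 members by smallest p. Pdgfra and other members shown beyond these were chosen after their values were seen. Positions are from GENCODE on GRCm38/mm10 and promoters from RefSeq on GRCm38.p6. Each library is 1 mouse, and libraries of 1 group differed by more than counting noise (chi-square per degree of freedom 2.35 to 21.0 over 19 pairs).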

Additional observations from a re-analysis of the deposited data

Results flagged for a closer look

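Within the 5 MyTrMaSt + CBE libraries, 6 of the 43 members had 1 library far from the other 4 by Dixon's gap test at the 95% level, which chance does in about 1 of 20 groups. Enpp6 was at 29.22 CPM in replicate 1, where the nearest library was at 19.2. Nkx6-2 was at 68.11 CPM in replicate 5, with the nearest at 56.74. Replicate 3 was high for Omg, at 120.77 CPM against 97.07 in the nearest library, and for Aspa, at 6.08 CPM against 2.25, where 6.08 CPM stands for 15 counts. Replicate 4 was low for Pllp, at 130.96 CPM against 143.87, and high for Qdpr, at 234.84 CPM against 216.64. None of these 6 genes was called in MyTrMaSt mice with all libraries, and Enpp6 and Omg were called lower without WT + PBS replicate 1 and in the MyTrMaSt libraries alone.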

How the results depend on the processing

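Of 14 members called in WT mice, other scalings, filters on low counts, DESeq2 and voom gave 12 to 15, while the WT libraries alone gave 2, these libraries without WT + PBS replicate 1 gave 24, the Xist covariate 8 and a 2-fold limit 8, or 3 with WT + PBS replicate 1 left out as well (added after seeing the data). Leaving out 1 library gave 7 (without WT + CBE replicate 2) to 18 (without WT + PBS replicate 1). In MyTrMaSt mice the 7 became 16 in these libraries alone, 4 with at least 10 counts in every library and 2 with a 2-fold limit, with or without WT + PBS replicate 1, while the Xist covariate gave 5 and the GC offset 6, 5 of them among the 7. Leaving out 1 library gave 3 (without MyTrMaSt + PBS replicate 1) to 19 (without WT + PBS replicate 1), with 4 without MyTrMaSt + PBS replicate 2 or 3 or MyTrMaSt + CBE replicate 2 or 3. Between genotypes after PBS, 0 became 1 with DESeq2, and leaving out 1 library gave 0 to 6 (without WT + PBS replicate 2). After CBE, 2 became 1 with RLE factors or the Xist covariate, 2 with the GC offset (1 of them shared), 0 with at least 10 counts in every library or a 2-fold limit (with or without WT + PBS replicate 1) and 5 in the CBE libraries alone, and leaving out 1 library gave 0 (without WT + CBE replicate 2 or 3, MyTrMaSt + PBS replicate 2 or MyTrMaSt + CBE replicate 1, 3 or 5) to 5 (without WT + PBS replicate 1). The interaction gave 0 under every alternative run. The causes were not tested. At 1290616 to 3704691 counts a library, Cntn2 (1 to 23 counts) and Aspa (1 to 20) allow no fine comparison.

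Same-numbered libraries did not deviate together (r -0.125 to 0.178 over 12 pairs, 3 of them over 0.1), so the numbers were not taken as pairs. With a replicate block 12 members were called in WT mice, 1 in MyTrMaSt mice (Gsn), 0 between genotypes after CBE, 0 after PBS and 0 for the interaction. The share of all genes called with this block is not given here. The fall from 7 to 1 in MyTrMaSt mice therefore cannot be set against it.

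Of the called values, 476 alternatives kept the call, 111 lost it and 0 turned the direction. Of the uncalled values, 738 kept direction and side of the threshold, 29 gained a call and 16 turned. In WT mice Enpp6 was 0.109 with voom and -0.737 to 0.389 with 1 library left out, Itpr2 -0.558 to 0.269 and 0.274 in the WT libraries without WT + PBS replicate 1, and Pdgfra -0.256 to 0.528 and -0.249. In MyTrMaSt mice Mag was -0.000464 with the replicate block, -0.098 with the GC offset and -0.195 to 0.227 with 1 library left out, Gjb1 -0.190 to 0.184, Bcas1 -0.119 to 0.0456 and 0.036 with the GC offset, and Pdgfra 0.053 with the GC offset. All are log2 fold changes.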
